A study of Mus musculus with 6 samples.

Results

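Keratins are the intermediate filament proteins of epithelial cells, and the genes that encode them were examined here together with the keratin-associated protein (Krtap) genes, whose products embed keratin filaments in the hair shaft. The members were every autosomal protein-coding gene whose symbol starts with Krt and a number or with Krtap. They made up 97 of the 21418 autosomal protein-coding genes of the annotation. The rule that picked them used names, and it was set with earlier results of these data known. They fell into 27 keratins on chromosome 11, 24 keratins on chromosome 15 and 46 Krtap genes, of which 22 lie on chromosome 11, 19 on chromosome 16, 4 on chromosome 7 and 1 on chromosome 10. One of the chromosome 15 members, Krt72-ps, carries a pseudogene symbol but is annotated as protein-coding. The Krtap members Krtap1-4 and Krtap4-9 share their symbol and their tile with an annotated pseudogene.

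The data were chromatin immunoprecipitation sequencing (ChIP-seq) libraries of mouse embryonic stem cells (ESCs) of background strain E14 as labelled, although the study's methods name C57BL/6 for the floxed line, grown in serum and LIF. In total 6 libraries were used, 1 for each of the 3 repressive histone marks H3K9me2, H3K27me3 and H3K9me3 in each of 2 genotypes. The first genotype, labelled Dicer -/- and called Dicer KO, lacks the small RNA processing enzyme Dicer. Its titles mark it as a Dnmt1 control, and the paper lists the Dicer KO line as carrying floxed Dnmt1. The second, labelled Dicer/Dnmt1 -/- and called Dicer KO/Dnmt1 cKO, also lacks the maintenance DNA methyltransferase Dnmt1. Its floxed Dnmt1 alleles were removed by tamoxifen-induced Cre. Both genotypes therefore lack Dicer, the Dicer-deficient cells grew from colonies of single edited cells, and the time between Dnmt1 deletion and harvest is not given in the labels. No mark had a second library of a genotype, so no test between genotypes was possible. Every interval below is a 95% interval for counting error only. Library preparation, the tamoxifen-induced Cre and genotype cannot be told apart.

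Type I keratins, the acidic partners, lie mostly in a cluster on mouse chromosome 11, and type II keratins, the basic partners, lie in a cluster on chromosome 15 that also holds the type I gene Krt18. A type I and a type II protein pair to form each filament, so that Krt8 pairs with Krt18 in simple epithelia, Krt5 with Krt14 in basal epidermis and Krt1 with Krt10 in differentiating epidermis. H3K27me3 is laid down by Polycomb repressive complex 2 and marks developmental genes held silent in ESCs, whereas H3K9me2 covers broad silent domains and H3K9me3 covers heterochromatin and many transposable elements.

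Levels are given as the reads in the 2 kb tiles over a gene divided by what the library's mean tile holds, so that a level of 1 is an even spread. The libraries held between 16834940 and 27162045 reads, and the median tile held 13 to 18 of them. The members covered 319 tiles, 113 over chromosome 11 keratins, 132 over chromosome 15 keratins and 74 over Krtap genes, of which 1 tile was shared by members and 2 were shared with another protein-coding gene. Krtap genes are short, with 21 of them in 1 tile and 24 in 2 tiles, so that their values rest on fewer reads than those of the keratins. The deposited table also holds a column of input values, which matches no sample of the labels and was not used here, so the share of any level that comes from how well reads map to a tile was not tested.

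To show what the gene starts look like, the 250 bases before the annotated start (NCBIM37) are given for 5 members, chosen after their values were seen to span the range of H3K27me3, written 5′ to 3′ on the strand of the gene with CpG dinucleotides in capitals. Krt8 and Krt18 encode the simple epithelial pair. Krt83 encodes a hair keratin, and its 2 kb start tile held 73 CpGs, close to the 71 of Krt18 and above the 52 of Krt8. Krt10 encodes the type I keratin of the upper epidermis, with 36 CpGs in its start tile, and Krtap17-1 had the highest H3K27me3 level of the Krtap genes.
Krt8 (chr15:101834774-101835023, minus strand): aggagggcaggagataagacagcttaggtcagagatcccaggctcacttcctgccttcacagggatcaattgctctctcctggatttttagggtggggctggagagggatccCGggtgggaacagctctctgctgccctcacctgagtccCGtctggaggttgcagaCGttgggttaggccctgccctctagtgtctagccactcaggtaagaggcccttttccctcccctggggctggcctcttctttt
Krt18 (chr15:101858397-101858646, plus strand): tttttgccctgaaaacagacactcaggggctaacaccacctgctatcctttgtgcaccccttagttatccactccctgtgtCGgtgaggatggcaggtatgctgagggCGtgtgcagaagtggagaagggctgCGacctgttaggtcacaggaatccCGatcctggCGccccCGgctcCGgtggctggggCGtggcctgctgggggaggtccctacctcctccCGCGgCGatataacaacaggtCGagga
Krt83 (chr15:101269236-101269485, minus strand): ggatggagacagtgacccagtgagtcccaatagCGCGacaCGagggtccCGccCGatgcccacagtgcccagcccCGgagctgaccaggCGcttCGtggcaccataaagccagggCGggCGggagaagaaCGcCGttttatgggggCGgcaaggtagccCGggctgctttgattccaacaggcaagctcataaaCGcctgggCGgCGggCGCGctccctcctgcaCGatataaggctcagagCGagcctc
Krt10 (chr11:99250679-99250928, minus strand): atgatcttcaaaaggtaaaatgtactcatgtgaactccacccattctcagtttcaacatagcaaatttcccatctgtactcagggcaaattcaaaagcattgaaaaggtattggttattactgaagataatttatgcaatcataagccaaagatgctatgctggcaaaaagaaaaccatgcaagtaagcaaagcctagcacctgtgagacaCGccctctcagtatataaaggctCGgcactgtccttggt
Krtap17-1 (chr11:99855309-99855558, minus strand): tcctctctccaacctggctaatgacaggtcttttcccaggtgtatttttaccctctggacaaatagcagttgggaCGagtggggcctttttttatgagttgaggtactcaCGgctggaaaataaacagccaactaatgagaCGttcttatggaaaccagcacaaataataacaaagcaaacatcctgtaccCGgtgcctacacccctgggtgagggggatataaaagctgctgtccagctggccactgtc

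In these windows Krt83 held 21 CpGs, Krt18 held 12, Krtap17-1 held 4, Krt8 held 3 and Krt10 held 2. The start tile of Krt83 had an H3K27me3 level of 3.52 from 72 reads in Dicer KO and 3.99 from 64 reads in Dicer KO/Dnmt1 cKO. The start tile of Krt18, with nearly as many CpGs, had 0.88 from 18 reads and 0.873 from 14 reads. A CpG-rich start was thus found at both ends of the H3K27me3 range, and the start tile of Krt10 lay at its low end, at 0.538 and 0.437. The start tile of Krt8 stood at 0.782 and 0.624.

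H3K27me3 was the highest of the 3 marks over each group. Over the chromosome 15 keratins its level was 2.65 (2.59 to 2.72, 7170 reads) in Dicer KO and 2.47 (2.4 to 2.54, 5228 reads) in Dicer KO/Dnmt1 cKO. Over the chromosome 11 keratins it was 1.8 (1.75 to 1.86, 4169 reads) and 1.95 (1.88 to 2.01, 3530 reads). The Krtap genes had the lowest H3K27me3 of the 3 groups, 1.44 (1.38 to 1.5, 2175 reads) and 1.41 (1.35 to 1.48, 1677 reads), and the order of the groups was the same in both genotypes, with intervals that did not overlap. The median over all autosomal protein-coding genes was 0.694 in Dicer KO and 0.728 in Dicer KO/Dnmt1 cKO, and 26 of 27 chromosome 11 keratins, 23 of 24 chromosome 15 keratins and 45 of 46 Krtap genes lay above it in Dicer KO.

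A level of at least 2 in both genotypes was found for H3K27me3 at 35 of the 97 members, against 10.5% of all autosomal protein-coding genes. This count was made up of 18 of the 24 chromosome 15 keratins, 12 of the 27 chromosome 11 keratins and 5 of the 46 Krtap genes, a share of 10.9% for the last group and so close to the background. For H3K9me2 only Krt14 reached a level of 2 in both genotypes, against 0.341% of all genes. For H3K9me3 none of the 97 members did, against 0.542% of all genes.

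The other 2 marks were above the genome mean over all 3 groups, but within a narrower range. H3K9me2 stood at 1.32 and 1.4 over chromosome 11 keratins, at 1.44 and 1.44 over chromosome 15 keratins and at 1.23 and 1.17 over Krtap genes in Dicer KO and Dicer KO/Dnmt1 cKO. H3K9me3 stood at 1.16 and 1.23, at 1.15 and 1.28 and at 1.19 and 1.18 over the same groups in the same order. The medians of all genes were 0.743 and 0.842 for H3K9me2 and 0.773 and 0.79 for H3K9me3, so that keratin and Krtap genes held more of every mark than the median gene. Ranked among all genes in Dicer KO, the median chromosome 15 keratin lay at percentile 94.6 for H3K27me3, against 92.6 for H3K9me2 and 86 for H3K9me3. The median chromosome 11 keratin lay at 83.5, 88.2 and 87.2 and the median Krtap gene at 72.5, 80.5 and 89.8, so that by rank H3K27me3 led over the chromosome 15 keratins and not over the other groups.

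**Figure D1:**
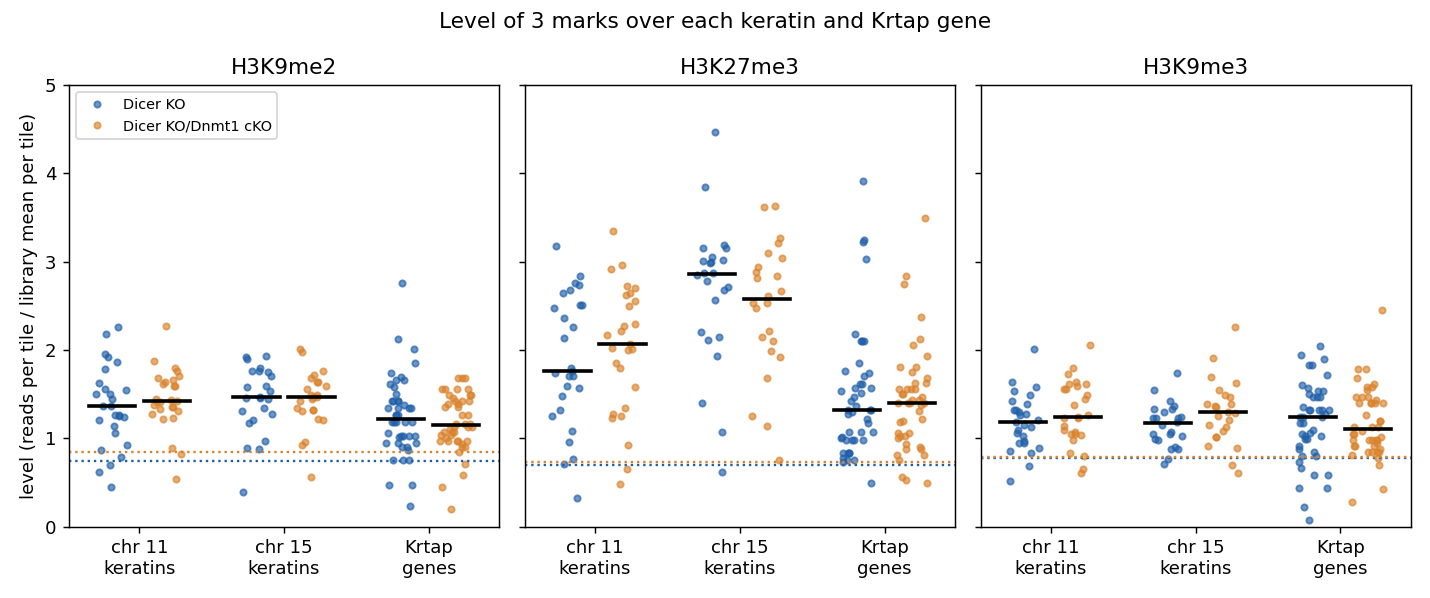
Level of H3K9me2, H3K27me3 and H3K9me3 (reads per 2 kb tile over the library mean, y axis) for each of the 97 members, by group and genotype (blue, Dicer KO; orange, Dicer KO/Dnmt1 cKO). Points are genes, black bars are group medians and dotted lines are the medians of all autosomal protein-coding genes. The H3K27me3 median of the chromosome 15 keratins lies at 2.86 and 2.57, above the other groups, and H3K9me2 and H3K9me3 medians lie between 1.1 and 1.46 in every group.

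Set against the other 2 marks in the same tiles, which share their mappability, H3K27me3 held 2.05 (1.98 to 2.13) times the mean share of H3K9me2 and H3K9me3 over the chromosome 15 keratins in Dicer KO and 1.82 (1.75 to 1.89) times in Dicer KO/Dnmt1 cKO. Over the chromosome 11 keratins the ratio was 1.46 (1.39 to 1.52) and 1.48 (1.42 to 1.55). Over the Krtap genes it was 1.19 (1.12 to 1.26) and 1.2 (1.13 to 1.28). H3K27me3 was the leading mark in all 3 groups by this measure, and its excess was smallest over the Krtap genes. Within the Krtap genes the ratio differed by chromosome. It was 3.22 and 2.2 on chromosome 7, 1.29 and 1.26 on chromosome 10 and 1.16 and 1.25 on chromosome 11. Over the 19 on chromosome 16 it was 0.953 (0.87 to 1.04) and 0.994 (0.902 to 1.09), below the 1.03 and 1.07 of H3K9me3.

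Within the chromosome 15 cluster, Krt1, the type II keratin of differentiating epidermis, had the highest H3K27me3 level of any member in Dicer KO, 4.47 (366 reads), and 3.62 (232 reads) in Dicer KO/Dnmt1 cKO. Krt73, a keratin of the inner root sheath of the hair follicle, followed with 3.84 (472 reads) and 3.05 (293 reads). Krt4, a keratin of mucosal epithelia, stood at 3.15 (258 reads) and 3.63 (233 reads). These were the 3 highest of the chromosome 15 group by the mean of both genotypes, and Krt4 was also the highest of that group for H3K9me2, at 1.93 and 1.97, and for H3K9me3, at 1.74 and 2.26. The next for H3K9me2 were Krt78, with 1.77 and 2.01, and the hair keratin gene Krt84, with 1.89 and 1.76. Krt84 and the inner root sheath gene Krt71 were next for H3K9me3, with 1.55 and 1.91 for Krt84 and with 1.42 and 1.63 for Krt71.

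Krt8 and Krt18, at one end of the chromosome 15 cluster, stood apart from their neighbours. H3K27me3 over Krt8 was 0.616 (63 reads) in Dicer KO and 0.749 (60 reads) in Dicer KO/Dnmt1 cKO, and over Krt18 it was 1.08 (66 reads) and 1.14 (55 reads). H3K9me2 over Krt8 was 0.394 (25 reads) and 0.557 (43 reads), the lowest of the chromosome 15 keratins in both genotypes. Krt18 had 0.894 (34 reads) and 1.32 (61 reads) of H3K9me2. H3K9me3 was 0.76 and 0.701 over Krt8 and 0.902 and 0.608 over Krt18, where both Dicer KO/Dnmt1 cKO values were the lowest of the group. Without this pair the H3K27me3 level of the chromosome 15 keratins was 2.78 and 2.57. Reads over genes show the marks and not expression, so whether either gene was transcribed was not tested.

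The step along the chromosome was sharp. In 20 kb windows H3K27me3 was 2.42 in Dicer KO and 2.5 in Dicer KO/Dnmt1 cKO over the window with Krt78, then 1.34 and 1.19 in the next window, which holds no member, and 0.586 and 0.761 in the window with Krt8. The whole chromosome 15 locus, 684.583 kb from Krt80 to Krt18, had 2.22 and 2.11, and its tiles in no protein-coding gene had 1.9 and 1.85. The 100 kb before the locus had 0.727 and 0.802, and the 100 kb after it had 0.525 and 0.558. H3K27me3 thus covered the space between the genes as well as the genes, and was lower outside the cluster on both sides.

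**Figure D2:**
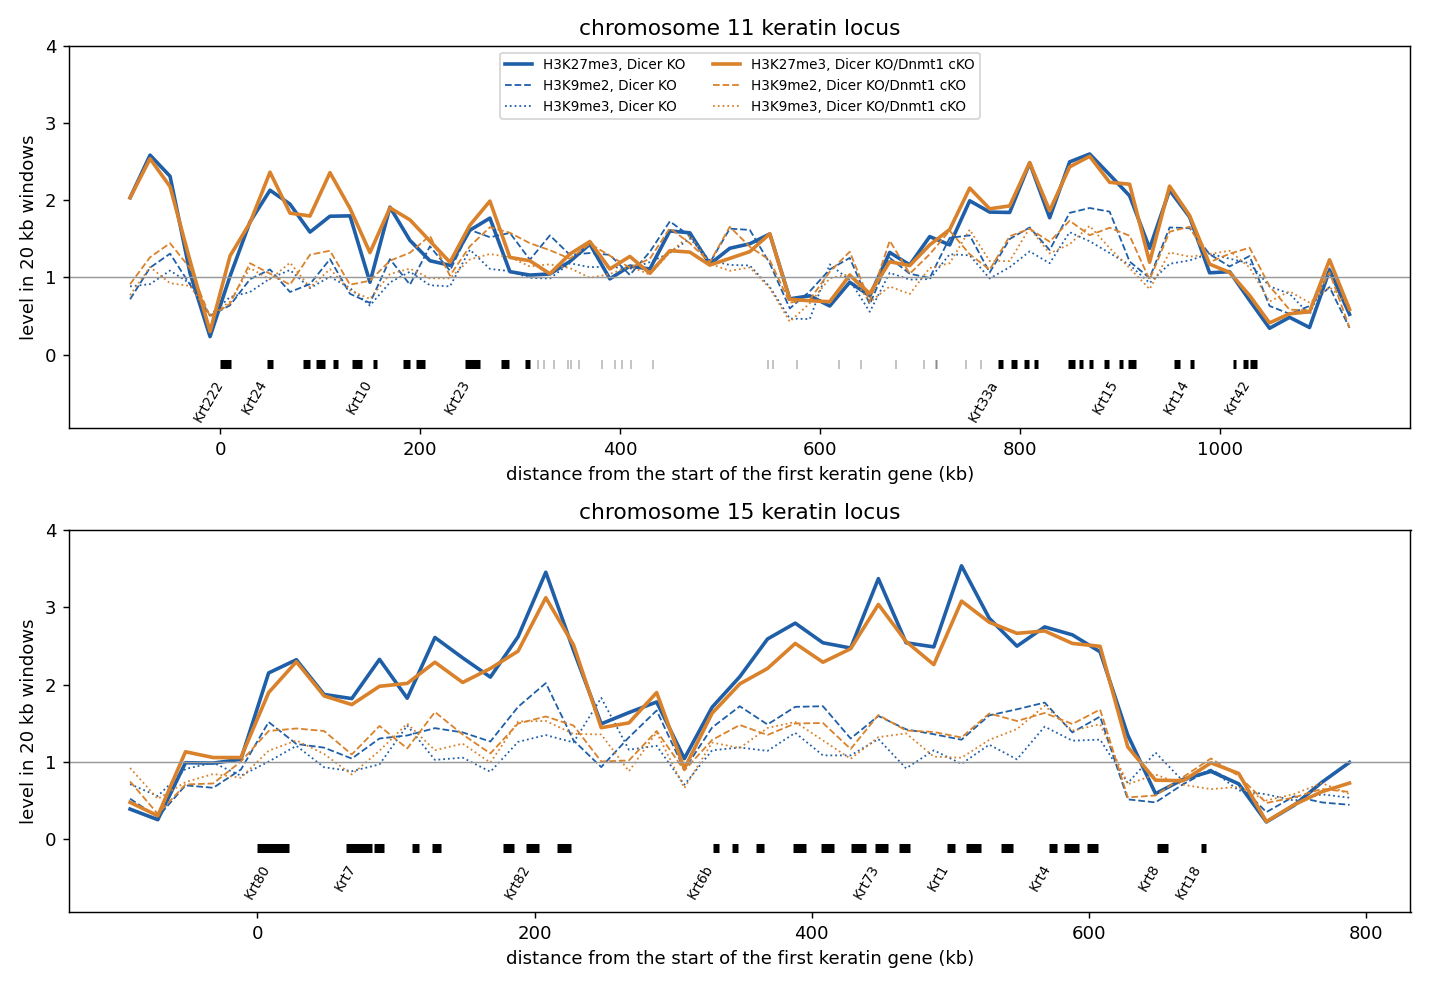
Levels in 20 kb windows (y axis) along the keratin loci of chromosome 11 (top) and chromosome 15 (bottom) against the distance from the start of the first keratin gene in kb (x axis), with H3K27me3 as thick lines, H3K9me2 dashed and H3K9me3 dotted, in Dicer KO (blue) and Dicer KO/Dnmt1 cKO (orange). Black bars mark keratin genes and grey bars Krtap genes. On chromosome 15, H3K27me3 stays above the other marks over most of the locus and drops from 2.42 to 0.586 in Dicer KO between Krt78 and Krt8. On chromosome 11 in Dicer KO, it is 1.24 over the whole stretch of Krtap genes with the space between them. Over gene tiles alone it is 1.36 for these Krtap genes, 1.55 for the 12 keratins before them and 2.11 for the 15 keratins after them. The last 3 of these keratins lie at 0.897.

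The chromosome 11 cluster is longer, 1037.11 kb, and was less even. Its tiles in no protein-coding gene had an H3K27me3 level of 1.38 and 1.42, the 100 kb before it had 1.64 and 1.65 and the 100 kb after it had 0.563 and 0.664. The Krtap genes that lie between its keratins cover 443.863 kb. Over this whole stretch, with the space between genes, the level was 1.24 in Dicer KO and 1.23 in Dicer KO/Dnmt1 cKO. Over the tiles of the Krtap genes alone it was 1.36 and 1.44. The following division of the keratins, also in gene tiles alone, was made after their values were seen. The 12 keratins from Krt222 to Krt40, before the Krtap genes, had 1.55 and 1.78, the 12 from Krt33a to Krt14, after them, had 2.44 and 2.49, and the last 3, Krt16, Krt17 and Krt42, had 0.897 and 0.913.

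The highest H3K27me3 of the chromosome 11 keratins lay over Krt15, a basal epidermal keratin, at 3.18 (195 reads) and 3.35 (161 reads). Krt35, a hair keratin, had 2.74 and 2.91, and Krt24 had 2.68 and 2.96. At the other end Krt10, the partner of Krt1, had 0.326 (20 reads) in Dicer KO and 0.478 (23 reads) in Dicer KO/Dnmt1 cKO, the lowest values of all 97 members, and it was named after its value was seen. Its neighbours Krt28 and Krt12 had 1.8 and 2.01 and had 1.59 and 2.21, so that the low level covered 1 gene within the cluster. Krt10 was low in the other marks too, at 0.447 and 0.82 for H3K9me2 and at 0.512 and 0.654 for H3K9me3. The partners Krt1 and Krt10 thus lay at opposite ends of the H3K27me3 range in Dicer KO.

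For H3K9me2 the chromosome 11 keratins with the highest levels were Krt14, the basal epidermal partner of Krt5, with 2.18 and 2.27, the hair keratin Krt36 with 2.26 and 1.6, and Krt39 with 1.92 and 1.8. For H3K9me3 they were Krt36 with 1.54 and 2.06, the hair keratin Krt32 with 2.01 and 1.56, and Krt35 with 1.63 and 1.73. Krt36 and Krt35 were in the leading set for a pair of marks each.

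The simple epithelial keratins, which are typical of single-layered epithelia and include the first keratins of the embryo, were compared as a list. Besides Krt8 and Krt18, H3K27me3 over Krt7 was 1.93 (434 reads) and 1.68 (297 reads). Krt19 had 1.73 (142 reads) and 1.79 (115 reads). Krt20 had 1.25 (154 reads) and 1.34 (129 reads). Low H3K27me3 was thus not common to all simple epithelial keratins. Krt23 had 1.71 (315 reads) and 1.86 (268 reads), and Krt80 had 2.11 (561 reads) and 1.92 (401 reads). H3K9me2 over these 5 genes was 1.18 and 1.21 for Krt7, 0.927 and 1.31 for Krt19, 1.25 and 1.44 for Krt20, 1.62 and 1.33 for Krt23 and 1.45 and 1.31 for Krt80. H3K9me3 over them was 0.884 and 0.918 for Krt7, 1.1 and 1.05 for Krt19, 0.829 and 1.1 for Krt20, 1.39 and 1.23 for Krt23 and 1.05 and 1.13 for Krt80.

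By list, the H3K27me3 level was 1.66 and 1.62 over the 7 simple epithelial keratins, 2.44 and 2.41 over 20 epidermal and mucosal keratins, 2.54 and 2.52 over 8 inner root sheath keratins and 2.39 and 2.31 over 14 hair shaft keratins. The median gene of the same lists stood at 1.71, 2.59, 2.49 and 2.6 in Dicer KO against 0.694 for all genes. In Dicer KO, H3K27me3 reached 2 at 1 of the 7 simple epithelial, 14 of the 20 epidermal and mucosal, 5 of the 8 inner root sheath and 11 of the 14 hair shaft keratins, against 12.8% of all genes, and in Dicer KO/Dnmt1 cKO at 0, 15, 7 and 11 of the same lists, against 11.4%. The simple epithelial count was near that background. The simple epithelial keratins had the lowest H3K27me3 of the 4 lists, while H3K9me3 was highest over the hair shaft keratins, at 1.29 and 1.49.

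The Krtap genes fell into clusters with different levels. The 4 on chromosome 7, which encode cysteine-rich Krtap5 proteins, had an H3K27me3 level of 2.79 (343 reads) in Dicer KO and 2.21 (213 reads) in Dicer KO/Dnmt1 cKO, against 1.36 and 1.44 for the 22 on chromosome 11, 1.24 and 1.23 for the 19 on chromosome 16 and 1.86 and 1.56 for the 1 on chromosome 10. Their surroundings were also above the genome mean, but lower than the genes, at 2.15 and 1.7 in the 100 kb before them and at 2.07 and 1.78 in the 100 kb after them, with counting intervals that did not overlap those of the genes. On chromosome 16 the whole cluster of 960.475 kb had an H3K27me3 level of 0.972 and 0.981, below its H3K9me2 level of 1.17 and 1.13 and its H3K9me3 level of 1.21 and 1.19.

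The single Krtap gene with the most H3K27me3 was Krtap17-1, the last of the chromosome 11 Krtap genes before Krt33a, at 3.91 (80 reads) and 3.49 (56 reads). Krtap5-4 followed with 3.25 (133 reads) and 2.74 (88 reads), and Krtap5-3 with 3.03 (124 reads) and 2.84 (91 reads). All 3 lay over 2 in both genotypes. For H3K9me2 the leading Krtap genes were Krtap8-2 with 2.76 and 1.49, Krtap3-1 with 2.13 and 1.42 and Krtap16-4 with 1.73 and 1.68. For H3K9me3 they were Krtap11-1 with 1.83 and 2.45, Krtap4-16 with 2.05 and 1.58 and Krtap7-1 with 1.94 and 1.68. Reads that fit several places were discarded by the authors, so the levels of near-identical Krtap copies are uncertain.

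Between genotypes the changes over each whole group were small, while some parts of a group changed by more. As log2 ratios of Dicer KO/Dnmt1 cKO over Dicer KO, H3K27me3 changed by 0.11 (0.047 to 0.18) over the chromosome 11 keratins, by -0.10 (-0.16 to -0.052) over the chromosome 15 keratins and by -0.023 (-0.11 to 0.069) over the Krtap genes. By the division above, made after values were seen, the 12 keratins from Krt222 to Krt40 changed by 0.20 (0.11 to 0.29). The 12 from Krt33a to Krt14 changed by 0.029 (-0.066 to 0.12), and the last 3 by 0.025 (-0.27 to 0.32). The chromosome 11 value thus came mostly from the keratins before the Krtap genes. The chromosome 11 keratins exceeded the chromosome 15 keratins by 0.22 (0.13 to 0.30), and 18 of 27 genes on chromosome 11 and 7 of 24 on chromosome 15 were higher in Dicer KO/Dnmt1 cKO, against 60.9% of all tested genes, to which the chromosome 11 count is close. With GC content taken into account the chromosome 15 value was -0.016 beside 0.15 for chromosome 11, and with the start tile of each gene alone it was -0.029 beside 0.19. Both chromosome 15 values were smaller in size than the main value and lay outside its counting interval. Whether a decrease remained in these settings was not tested. The group values above pool reads, and the reads of all genes together changed by 0.023 in H3K27me3. As medians over genes, H3K27me3 changed by 0.089 over the chromosome 11 keratins, -0.11 over the chromosome 15 keratins and 0.089 over the Krtap genes. Across all tested genes the median change in H3K27me3 was 0.07, that in H3K9me2 was 0.11 and that in H3K9me3 was 0.033.

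H3K9me2 changed by 0.084 (-0.0027 to 0.17) over the chromosome 11 keratins, by -0.0017 (-0.079 to 0.076) over the chromosome 15 keratins and by -0.067 (-0.18 to 0.047) over the Krtap genes, beside 0.036 for the reads of all genes together. With GC content taken into account the 3 group values were 0.024, -0.12 and -0.075. H3K9me3 changed by 0.093 (0.0012 to 0.19), by 0.16 (0.072 to 0.24) and by -0.0074 (-0.12 to 0.11) in the same order, and with GC content taken into account by 0.05, 0.092 and -0.011. Over the chromosome 15 keratins, 18 of 24 genes had more H3K9me3 in Dicer KO/Dnmt1 cKO, and over the 14 hair shaft keratins of both clusters 12 did, with a change of 0.21 (0.086 to 0.33), against 57% of all tested genes. The hair shaft change was the largest of the keratin lists. It was 0.15 (0.043 to 0.25) over the epidermal and mucosal, 0.11 (-0.044 to 0.26) over the inner root sheath and 0.0053 (-0.14 to 0.15) over the simple epithelial keratins. For the chromosome 11 keratins the H3K9me3 change was -0.012 when the start tile alone was used.

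**Figure D3:**
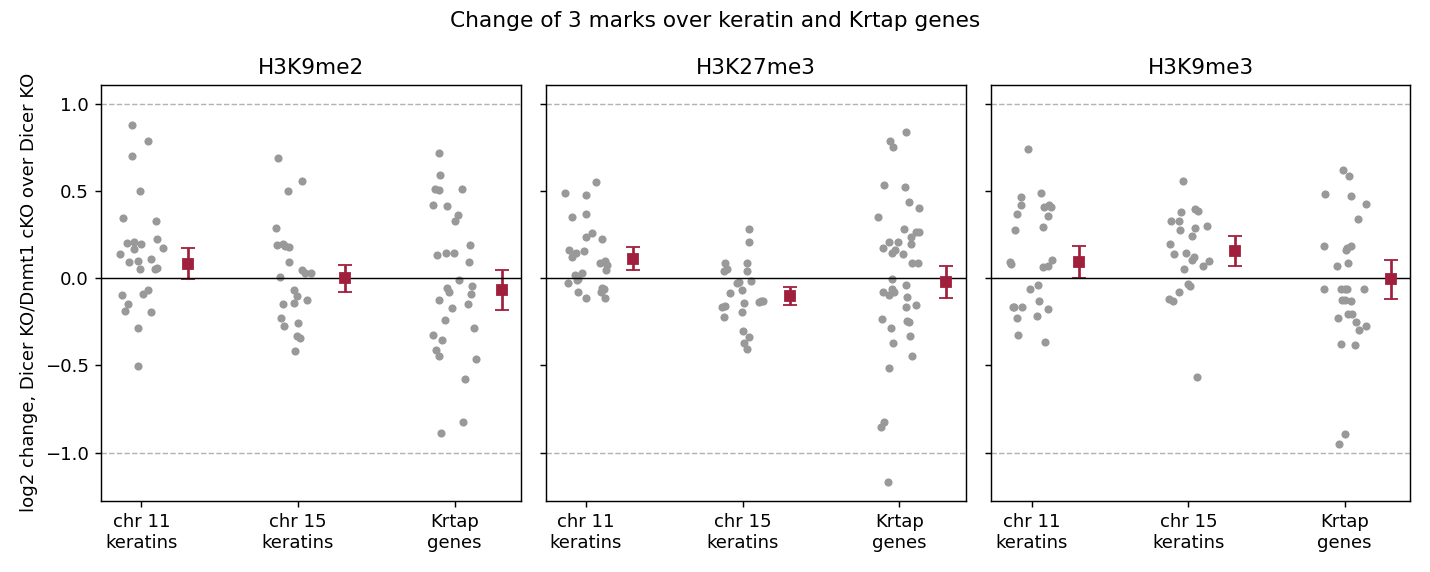
Log2 change of each mark from Dicer KO to Dicer KO/Dnmt1 cKO (y axis) by gene group. Grey points are single genes with at least 40 reads over both libraries, red squares are the whole group with its 95% counting interval, and dashed lines mark 2-fold. The H3K27me3 square lies at 0.11 for chromosome 11 keratins and at -0.10 for chromosome 15 keratins, and 1 point, Krtap5-2, lies past 2-fold.

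Changes of single genes were counted where the 2 libraries of a mark together held 40 reads or more over a member, 83 members for H3K9me2, 92 for H3K27me3 and 81 for H3K9me3. A change of at least 2-fold in either direction was found for none of 83 members in H3K9me2 (0.698% of all tested genes), for 1 of 92 in H3K27me3 (0.946%) and for none of 81 in H3K9me3 (0.328%). At 1.5-fold, 6 members were higher and 2 lower in H3K9me2, against 5.34% and 1.1% of all genes, 3 were higher and 3 lower in H3K27me3, against 6.47% and 2.54%, and 2 were higher and 2 lower in H3K9me3, against 2.01% and 1.75%. As shares of the members these were 7.23% and 2.41%, 3.26% and 3.26%, and 2.47% and 2.47%.

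The member past 2-fold was Krtap5-2 on chromosome 7, which had 43 H3K27me3 reads in Dicer KO and 15 in Dicer KO/Dnmt1 cKO, a level of 2.1 against 0.936 and a log2 change of -1.17 (-2.02 to -0.32). It lies in 1 tile and had only 3 H3K9me2 reads in each genotype. The decrease in H3K27me3 was not confined to this gene. The 4 Krtap genes of chromosome 7 together changed by -0.34 (-0.58 to -0.089). The 100 kb before their cluster changed by -0.34 (-0.43 to -0.24) and the 100 kb after it by -0.22 (-0.32 to -0.12). Krtap5-3, the next gene along, had 124 and 91 reads and a change of -0.094. Krtap5-5, the one after it, with 43 and 19 reads, changed by -0.83, and Krtap13-1 on chromosome 16, with 30 and 13 reads, changed by -0.85. The largest increases in H3K27me3 were those of Krtap4-1 from 20 to 28 reads, 0.84 on the log2 scale, of Krtap1-4 from 20 to 27 reads, 0.78, and of Krtap13 from 22 to 29 reads, 0.75. All 6 were Krtap genes in 1 tile, where few reads widen the counting error.

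In H3K9me2 the largest increase was that of Krt10, from 17 to 38 reads and by 0.88 (0.05 to 1.70) on the log2 scale, followed by the inner root sheath keratin Krt25, from 50 to 105 reads and by 0.79, and Krtap16-1, from 22 to 44 reads and by 0.72. The largest decreases were those of Krtap8-2, from 35 to 23 reads and by -0.89, Krtap1-5, from 51 to 35 reads and by -0.83, and Krtap3-1, from 27 to 22 reads and by -0.58. In H3K9me3, Krt34, a hair keratin, went from 39 to 68 reads, a change of 0.74, Krtap31-2 from 25 to 40, a change of 0.62, and Krtap16-1 from 16 to 25, a change of 0.58. The decreases were led by Krtap27-1, from 26 to 14 reads and by -0.95, Krtap2-4, from 41 to 23 reads and by -0.89, and Krt18, from 37 to 26 reads and by -0.57. Krtap16-1 was among the largest increases for both H3K9 marks.

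The order of the genes within a group was compared between genotypes. For H3K27me3 across genes the Dicer KO and Dicer KO/Dnmt1 cKO levels had a Pearson r of 0.96 over the 27 chromosome 11 keratins, 0.921 over the 24 chromosome 15 keratins and 0.815 over the 46 Krtap genes, with Spearman rho of 0.949, 0.932 and 0.65, beside a rho of 0.963 over all genes. For H3K9me2 the r was 0.83, 0.756 and 0.51. For H3K9me3 it was 0.691, 0.876 and 0.698, with a rho of 0.664 over the Krtap genes, close to that of H3K27me3. Genes are not independent replicates, neighbours share a domain, and the read counts behind Krtap values are lower, so these are descriptions.

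What the genes share in sequence was compared with their marks. Start tiles held a median of 31 CpGs for chromosome 11 keratins, 34.5 for chromosome 15 keratins and 13.5 for Krtap genes, against 54 for all autosomal protein-coding genes. Both the H3K27me3 level and the base composition were taken from the start tile alone. Across the 46 Krtap genes, this level and the GC percentage had a Pearson r of 0.624 in Dicer KO and 0.574 in Dicer KO/Dnmt1 cKO. The values were 0.327 and 0.21 over the chromosome 11 keratins and -0.0953 and 0.149 over the chromosome 15 keratins. With the CpG number in place of the GC percentage, r was 0.346 and 0.506 over the Krtap genes, 0.132 and 0.259 over the chromosome 11 keratins and -0.181 and 0.0852 over the chromosome 15 keratins. Points share the base composition of their cluster, and sequencing depth depends on GC content as well.

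**Figure D4:**
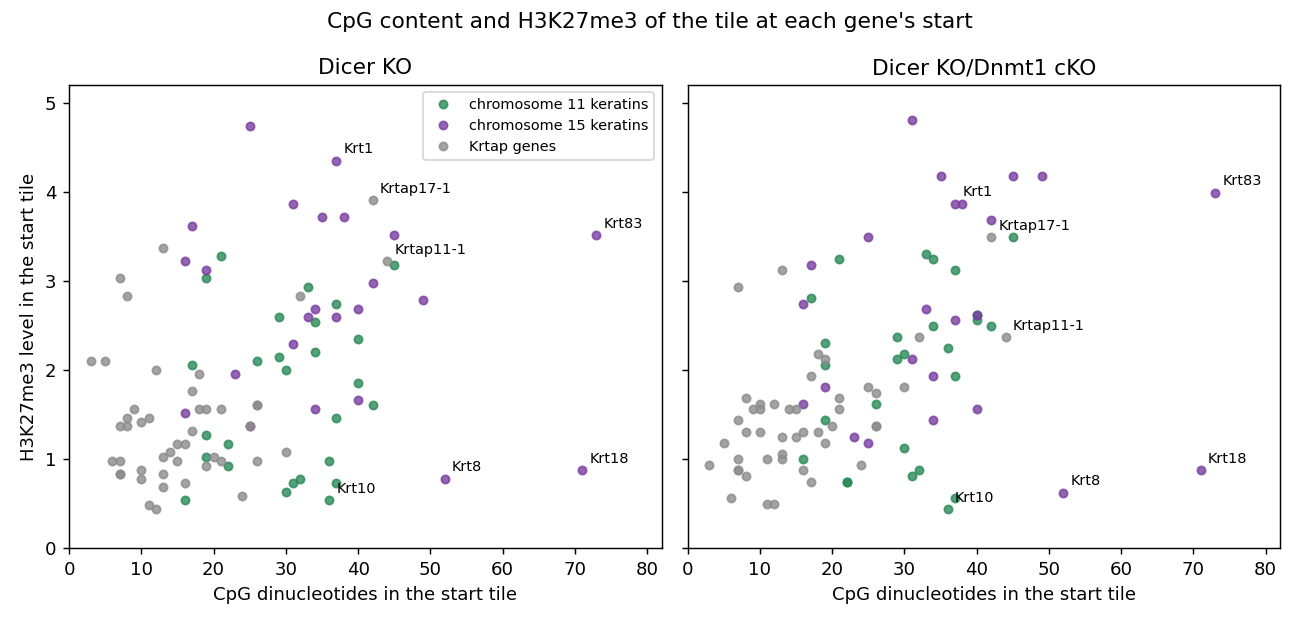
H3K27me3 level of the 2 kb tile at each gene's start (y axis) against its number of CpG dinucleotides (x axis) in Dicer KO (left) and Dicer KO/Dnmt1 cKO (right), with 1 point for each of the 97 members. Krt83 and Krt18, with 73 and 71 CpGs, lie at 3.52 and 0.88 in Dicer KO, and most Krtap genes lie at under 30 CpGs.

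The 250 bases before the start held a median of 4 CpGs for chromosome 11 keratins, 3 for chromosome 15 keratins and 1 for Krtap genes, against 9 for the 21413 promoters of this length that could be read. The letters TATAAA, searched on both strands, were found in 18 of 27 chromosome 11 keratin windows, 5 of 24 chromosome 15 keratin windows and 37 of 46 Krtap windows, or 66.7%, 20.8% and 80.4%, against 12.4% of all windows. Of the 5 windows printed above, those of Krt10 and Krtap17-1 hold it, once each and on the strand of the gene. These are matches of letters and not sites shown to be bound.

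Genes of the same tissues that are no keratins were taken from fixed lists. Over 39 cornified envelope genes, which encode the cross-linked shell of epidermal cells, H3K27me3 was 1.21 and 1.09, with the hair follicle gene Tchh highest at 4.86 and 2.45 and Lce1m next at 2.76 and 2.56. At least 2 was reached by 6 of the 39 in Dicer KO and by 4 in Dicer KO/Dnmt1 cKO, near the 12.8% and 11.4% of all genes. Over 14 desmosome genes, which anchor keratin filaments at cell junctions, it was 0.962 and 0.974, with Pkp1 at 3.14 and 3.1 and Evpl at 2.24 and 2.05. Over 15 genes of other intermediate filaments it was 1.59 and 1.41, with the neuronal filament genes Nefl at 5.02 and 3.54 and Prph at 4.27 and 3.47. With the reads of each list pooled, H3K27me3 changed by -0.18 (-0.24 to -0.12) over the other intermediate filaments and by -0.15 (-0.24 to -0.064) over the cornified envelope genes. Over the desmosome genes it changed by 0.018 (-0.034 to 0.069). The medians over genes were -0.22, -0.048 and 0.0061 in the same order. Tchh alone changed by -0.99, and the cornified envelope value without it was not tested.

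As a check of the cells, H3K27me3 was taken over the 6 ESC factor genes Pou5f1, Nanog, Sox2, Klf4, Esrrb and Zfp42. With their tiles pooled, so that longer genes weigh more, it was 1.13 in Dicer KO and 1.00 in Dicer KO/Dnmt1 cKO. The pooled change was -0.18 (-0.27 to -0.088). Across the 5 genes with at least 40 reads, changes ran from -0.29 to 0.85, with a median of -0.15. The median level of the 6 genes was 0.443 and 0.55, and the highest of them stood at 1.32 and 1.13. Over Dnmt1 the Dicer KO/Dnmt1 cKO libraries held 199 H3K9me2, 123 H3K27me3 and 161 H3K9me3 reads in 24 tiles, and since the extent of the deleted part is not given in the labels, these reads do not check the genotype.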

How the data were processed

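ChIP-seq of H3K9me2, H3K27me3 and H3K9me3 in Dicer KO and Dicer KO/Dnmt1 cKO ESCs was analysed, with 1 library per mark and genotype and samples grouped by the genotype and antibody of their labels. The H3K9me2 antibody came from Abcam and the other antibodies from Active Motif. The authors trimmed reads with Trim Galore, aligned them to NCBIM37 with Bowtie2, discarded those with a MAPQ under 20 and deposited, for 1327469 tiles that span 2 kb each, the log2 ratio of observed reads to those an even spread would give. Taken out of the log, values within a library were whole-number multiples of a constant (tolerance 0.1 reads, at most 1 exception per library), and the whole reads recovered in this way were used. Of 25 value columns 19 matched no sample and were not used. All 21 chromosomes compared had the same length as the reference.

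A gene's level is its reads over its number of tiles times the library mean, with an exact Poisson 95% interval, and a change is the log2 ratio of reads over library totals with a 95% counting interval. No pseudocount was added, except in 1 named alternative. Members and lists were chosen with earlier results of these data known. Genes named are the simple epithelial keratins, the 3 highest of each group and mark and the 3 largest increases and decreases of each mark with at least 40 reads, and for lists of other genes the 2 with most H3K27me3; genes named outside this rule are said to be chosen after their values were seen or serve as neighbours or partners. Of the fixed lists, 8 of 9 inner root sheath, 14 of 16 hair shaft and 39 of 42 cornified envelope symbols matched the annotation. Promoter letters were read from NCBIM37. One promoter sequence is not reported here. The functions were tested on simulated data. Python 3 with numpy, pandas, scipy and matplotlib was used. With no replicates no p-value is given, and alternatives for scaling, GC content, gene bounds, tiles and read minimum were run.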

Additional observations from a re-analysis of the deposited data

How the results depend on the processing

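No paired analysis was possible because no mark had more than 1 library of a genotype. Of the levels, ratios and changes under the alternatives, 173 moved by less than their counting interval, 33 moved by more and 1 was counted as reversed. Some changes whose main interval held 0 also changed sign but were not counted as reversed. For H3K9me2 over chromosome 15 keratins, -0.0017 became 0.016 with the start tile only. For H3K27me3 over Krtap genes, -0.023 became 0.089 as a median over genes. Of the counts of members past the fold, 4 stayed within 1.5 times and 5 did not. Changes kept within their intervals when the median ratio was set to 0, under scaling by a trimmed mean, without the gene with most reads and with bounds widened by 2 kb. With the start tile only, the H3K9me3 change of chromosome 11 keratins reversed to -0.012, the H3K27me3 change was 0.19 for chromosome 11 and -0.029 for chromosome 15 keratins, and the H3K9me3 change of chromosome 15 keratins was 0.28; the cause was not tested. In the same setting the levels of chromosome 15 keratins were 2.74 and 2.68 for H3K27me3 and 1.35 for H3K9me3 in Dicer KO/Dnmt1 cKO, and the H3K9me2 level of chromosome 11 keratins in Dicer KO was 1.39. Against the other marks, start tiles gave 0.943 for H3K9me2 and 1.35 for H3K27me3 in Dicer KO and 0.693 for H3K9me3 in Dicer KO/Dnmt1 cKO over chromosome 11 keratins, and 2.18 and 1.94 for H3K27me3 and 0.703 for H3K9me2 in Dicer KO/Dnmt1 cKO over chromosome 15 keratins. With GC content taken into account the changes of chromosome 15 keratins were -0.12 for H3K9me2 and -0.016 for H3K27me3, and as a median over genes the H3K27me3 change of Krtap genes was 0.089.

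With tiles without reads left out, which raises the mean tile, levels in Dicer KO and Dicer KO/Dnmt1 cKO were lower: 1.25 and 1.33, 1.71 and 1.85, and 1.1 and 1.17 for H3K9me2, H3K27me3 and H3K9me3 over chromosome 11 keratins, 1.36 and 1.36, 2.52 and 2.34, and 1.09 and 1.21 over chromosome 15 keratins, and 1.36 and 1.34 for H3K27me3 over Krtap genes. With bounds widened by 2 kb H3K27me3 was 2.56 and 2.4 over chromosome 15 keratins and 1.37 over Krtap genes in Dicer KO. The number of members past the fold was 8, 6 and 4 at 1.5-fold for H3K9me2, H3K27me3 and H3K9me3, 0 for H3K27me3 with at least 100 reads and 1 for H3K9me3 with no minimum and a pseudocount of 1 read. At these depths a gene in 1 tile had as few as 1 read, so that a 2-fold change of a single Krtap gene was often not detectable.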

Other observations

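Annotated pseudogenes of the Krtap families were not counted as members. The pseudogene entries Krtap1-4 and Krtap4-9 share symbol and tile with members and hold the same reads. For H3K27me3 these were 20 and 27 for Krtap1-4 and 36 and 31 for Krtap4-9. Another 3 pseudogenes are given here, chosen after their values were seen. Krtap5-1 on chromosome 7 had an H3K27me3 level of 2.93 (60 reads) in Dicer KO and 1.68 (27 reads) in Dicer KO/Dnmt1 cKO, beside 2.79 and 2.21 over the 4 Krtap genes of that chromosome. Krtap10-4 on chromosome 10 had 1.76 (36 reads) and 0.749 (12 reads). Krtap16-10 on chromosome 16 had more H3K9me3, 2.41 (33 reads) and 1.75 (25 reads), than H3K27me3, 0.831 (17 reads) and 0.936 (15 reads). The 100 kb before the chromosome 11 locus, which holds no member, had a mean H3K27me3 level of 1.64 and 1.65. The gene tiles of the locus's own keratins up to Krt40 had 1.55 and 1.78. This flank was uneven. Its highest 20 kb window had 2.59 and 2.54, and the last window before Krt222 had 0.235 and 0.299.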
